A study of Homo sapiens with 14 samples.

Results

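The effect of TGF-beta 1 on cultures labelled as induced neural crest and made with the high dose of CHIR99021 was measured in 4 of the 14 RNA-sequencing libraries of the series. CHIR99021 inhibits the kinase GSK3 and so activates canonical Wnt signaling. The 4 libraries were chosen by their labels: 2 of the group called high Wnt + TGFB and 2 of the group called high Wnt. All were made from WA01 (also called H1), a line of human embryonic stem cells, harvested at day 5 of induction. Both groups received CHIR99021 at 10 µM from hour 0 to hour 72, in B27 medium (DMEM/F12 with BSA) on a Matrigel coat. High Wnt + TGFB also received TGF-beta 1 at 5 ng/µL (the unit is the one in the labels) from hour 0 to hour 120, and high Wnt received no such additive. Values of other groups stand only beside these, but all 14 libraries of the series entered the 1 fit behind the tests. Low Wnt + TGFB and low Wnt were made in the same way with CHIR99021 at 3 µM. High Wnt + SB4 received 10 µM of CHIR99021 and, for 120 hours, 10 µM of SB431542, which blocks the kinases ALK4, ALK5 and ALK7 through which TGF-beta, activin and nodal signal. The other 2 groups in the fit were low Wnt + SB4, with 3 µM of CHIR99021 and 10 µM of SB431542, and hESC, which was not induced.

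TGF-beta ligands are secreted in a latent form, are released from it by integrins and proteases, and bind a type II receptor that activates a type I receptor. The type I receptor phosphorylates SMAD2 and SMAD3, which join SMAD4 and bind DNA, and among the genes induced are inhibitors of the pathway itself. In the embryo the related ligand nodal acts early in mesoderm and endoderm formation, and TGF-beta acts on the neural crest, where it can direct cells toward mesenchymal and smooth muscle fates and induce genes of the extracellular matrix.

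The gene counts summed to 10879287 and 15903635 in the high Wnt + TGFB libraries and to 12396451 and 14634002 in the high Wnt libraries. Levels below are CPM, counts relative to the library's total, scaled by TMM, a normalization that centres most genes on no change. Across genes the Pearson correlation of log2 CPM was 0.99 between the 2 high Wnt + TGFB libraries and 0.989 between the 2 high Wnt libraries, against 0.981 to 0.984 between libraries of different groups. Each fold change is on the log2 scale, high Wnt + TGFB over high Wnt, and stands with its standard error (SE). They were tested with edgeR's quasi-likelihood test and Benjamini-Hochberg adjustment over all genes tested, and a gene was called at an adjusted p under 0.05. Whether replicates were separate cultures is not stated in the labels, and the p-values then reflect a spread between libraries that may be technical.

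Neural crest specifiers were used to check the labelled cell type, and several of the transcription factors that define it were low in both groups. TFAP2A, an early crest regulator, was at 0.0896 and 0.0614 CPM in high Wnt + TGFB and at 0.166 and 0.0688 CPM in high Wnt. SOX10, the factor of migrating crest, was at 0.806 and 0.368 CPM in high Wnt + TGFB, against 1.66 and 1.44 CPM in high Wnt. FOXD3, another early factor, was at 0.358 and 0.798 CPM in high Wnt + TGFB and at 0.166 and 0.206 CPM in high Wnt. Other crest and border genes were well detected: PAX3 was at 259 and 248 CPM in high Wnt + TGFB, against 177 and 169 CPM in high Wnt, MSX1 at 85 and 123 CPM against 104 and 139 CPM and ETS1 at 63.5 and 61.4 CPM against 57 and 55 CPM. The genes of this check were chosen for their roles with their values known, and TFAP2A, FOXD3, MSX1 and ETS1 were not called. CDX2, a factor of the tailbud, was detected at 166 and 172 CPM in high Wnt + TGFB, against 323 and 312 CPM in high Wnt, and MEOX1, a factor of somites, at 232 and 210.3 CPM in high Wnt + TGFB, against 75.4 and 71.8 CPM in high Wnt. The low TFAP2A, FOXD3 and SOX10 go against the label in both groups, and the libraries are called by their treatments.

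TGF-beta 1 changed 1170 of 16149 genes tested (7.25%). Of these, 606 (3.75%) rose and 564 (3.49%) fell, and 294 rose and 134 fell by a log2 fold change of 1 or more. The shares of 3.75% and 3.49% are the background for the counts of list members below. The genes that rose most included genes of cartilage and tendon matrix, of somites and of arch mesenchyme, and those that fell most included genes of neurons and of the tailbud. The balance turned by DESeq2 (574 higher and 658 lower) and without the hESC libraries (730 higher and 791 lower). With library totals in place of TMM, 66.2% of the called genes were higher (787 higher and 401 lower), against 51.8% with TMM, and the median of all genes lay at 0.0616. The number called was 538 without high Wnt + TGFB replicate 1, 637 without its replicate 2, 589 without high Wnt replicate 1 and 714 without its replicate 2. Of the 1170, 362 were called in each of these 4 fits, and a call described below as kept is one of them. Where a named gene lost its call in such a fit or under another setting, its adjusted p there is given, or its call is said not to be kept. In bulk RNA, fewer cells of a type and less RNA per cell cannot be told apart.

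**Figure D1:**
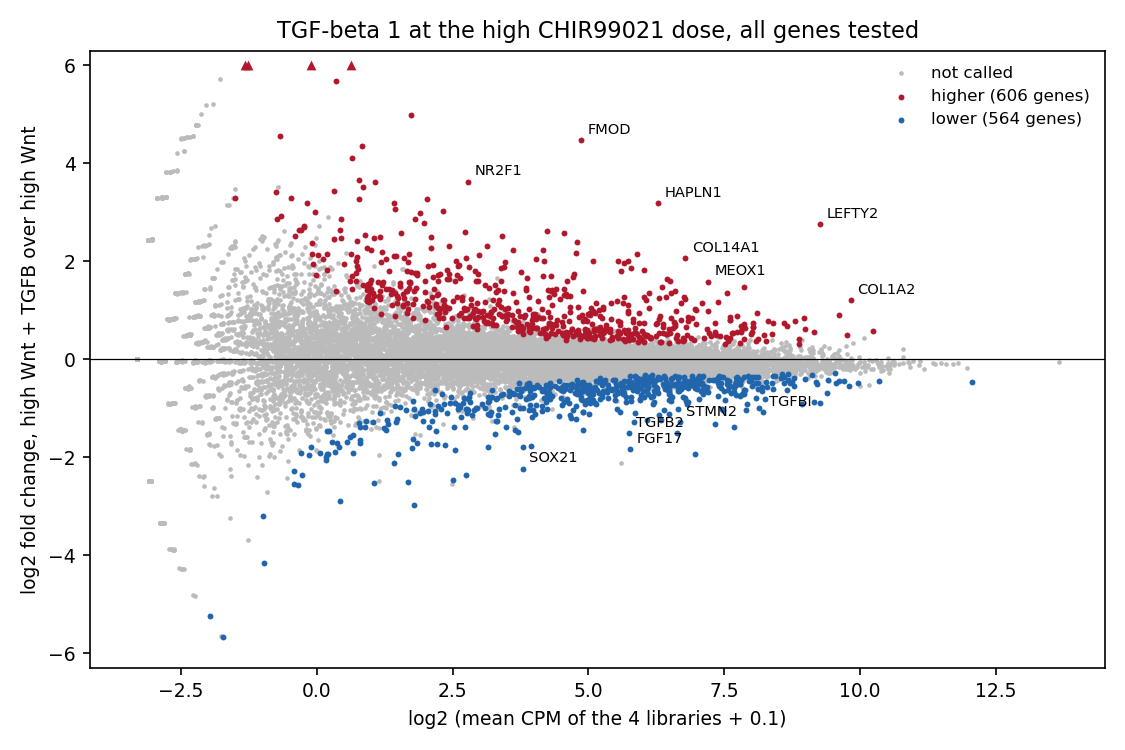
Log2 fold change (high Wnt + TGFB over high Wnt, vertical axis) against the log2 of the mean CPM of the 4 libraries plus 0.1 (horizontal axis) for the 16149 genes tested. The coloured points are the 606 genes called higher and the 564 called lower, and 4 genes beyond 6 are drawn as triangles at that edge; FMOD, HAPLN1 and LEFTY2 lie at 4.48, 3.19 and 2.75.

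The gene with the largest increase among those called at a mean of 10 CPM or more was FMOD, which encodes fibromodulin, a small proteoglycan that binds collagen fibrils (hg38 chr1:203340621-203351429). FMOD was at 56.4 and 55.4 CPM in high Wnt + TGFB, against 0.831 and 3.99 CPM in high Wnt (log2 fold change 4.48, SE 0.39, adjusted p = 2.06e-06). The high Wnt libraries differed from each other several-fold, and both lay far below the treated ones. HAPLN1, which links hyaluronan to proteoglycans in cartilage (hg38 chr5:83638198-83721077), was at 138 and 144 CPM in high Wnt + TGFB, against 16.1 and 14.8 CPM in high Wnt (log2 fold change 3.19, SE 0.15, adjusted p = 2.88e-09). TNMD, the tendon glycoprotein tenomodulin, was at 11.5 and 10.8 CPM in high Wnt + TGFB, against 2.49 and 1.24 CPM in high Wnt (log2 fold change 2.59, SE 0.34, adjusted p = 0.000174). The choice of these 3 matrix and tendon genes required that the libraries of the groups not overlap.

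The rest of the 12 largest increases were in genes of several kinds. NR2F1 (COUP-TFI), a nuclear receptor of neural crest mesenchyme and brain, was at 12.1 and 13.1 CPM in high Wnt + TGFB, against 1.16 and 0.894 CPM in high Wnt (3.63, SE 0.23). EBF3, a factor of mesenchymal and neuronal development, was at 43.2 and 36.9 CPM in high Wnt + TGFB, against 7.4 and 6.12 CPM in high Wnt (2.57, SE 0.21). ALDH1A2, the enzyme that makes retinoic acid in the mesoderm, was at 15.7 and 13.3 CPM in high Wnt + TGFB, against 3.16 and 2.68 CPM in high Wnt (2.31, SE 0.25). RIPPLY1, which acts at somite borders, rose by 2.4 (SE 0.22) and DMRT2, a factor of the somite's dermomyotome, by 2.22 (SE 0.26). LMO2, a LIM-domain cofactor best known in blood and endothelium, rose by 2.52 (SE 0.30), DDIT4L, an inhibitor of mTORC1 signaling, by 2.62 (SE 0.22) and SPTLC3, a subunit of serine palmitoyltransferase, by 2.23 (SE 0.24). LEFTY2, described with the ligands, completes the 12, and all 12 calls were kept.

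The genes with the largest decreases included genes of neurons and their progenitors. ONECUT2, a homeodomain factor of neurons and liver, was at 2.33 and 2.02 CPM in high Wnt + TGFB, against 7.98 and 14.2 CPM in high Wnt (log2 fold change -2.37, SE 0.38, adjusted p = 0.000843). SOX21, a SOX factor of neural progenitors, was at 4.12 and 5.4 CPM in high Wnt + TGFB, against 20.1 and 25.2 CPM in high Wnt (-2.23, SE 0.27). MIAT, a long noncoding RNA expressed in neurons, was at 51.3 and 52.2 CPM in high Wnt + TGFB, against 178 and 215 CPM in high Wnt (-1.93, SE 0.21). MIAT shares exon bases with MIATNB, and reads that overlap both are not counted.

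Others of the 12 largest decreases code for membrane proteins. CNTNAP4 and NTM, adhesion molecules of neurons, fell by 1.76 (SE 0.18) and 1.48 (SE 0.21), and CACNA1E, a calcium channel subunit, fell by 1.44 (SE 0.17). CA4, a carbonic anhydrase, fell by 1.53 (SE 0.17) and LRP2, the endocytic receptor megalin, by 1.5 (SE 0.18). FGF17, PRPH, NEUROG2 and TGFB2 are described with their groups below. In each of the 12 genes both high Wnt + TGFB libraries lay below both high Wnt libraries, and all 12 calls were kept. The choice of the 24 genes required such a separation, which over all genes tested was found upward in 25.7% and downward in 24.8%.

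**Figure D2:**
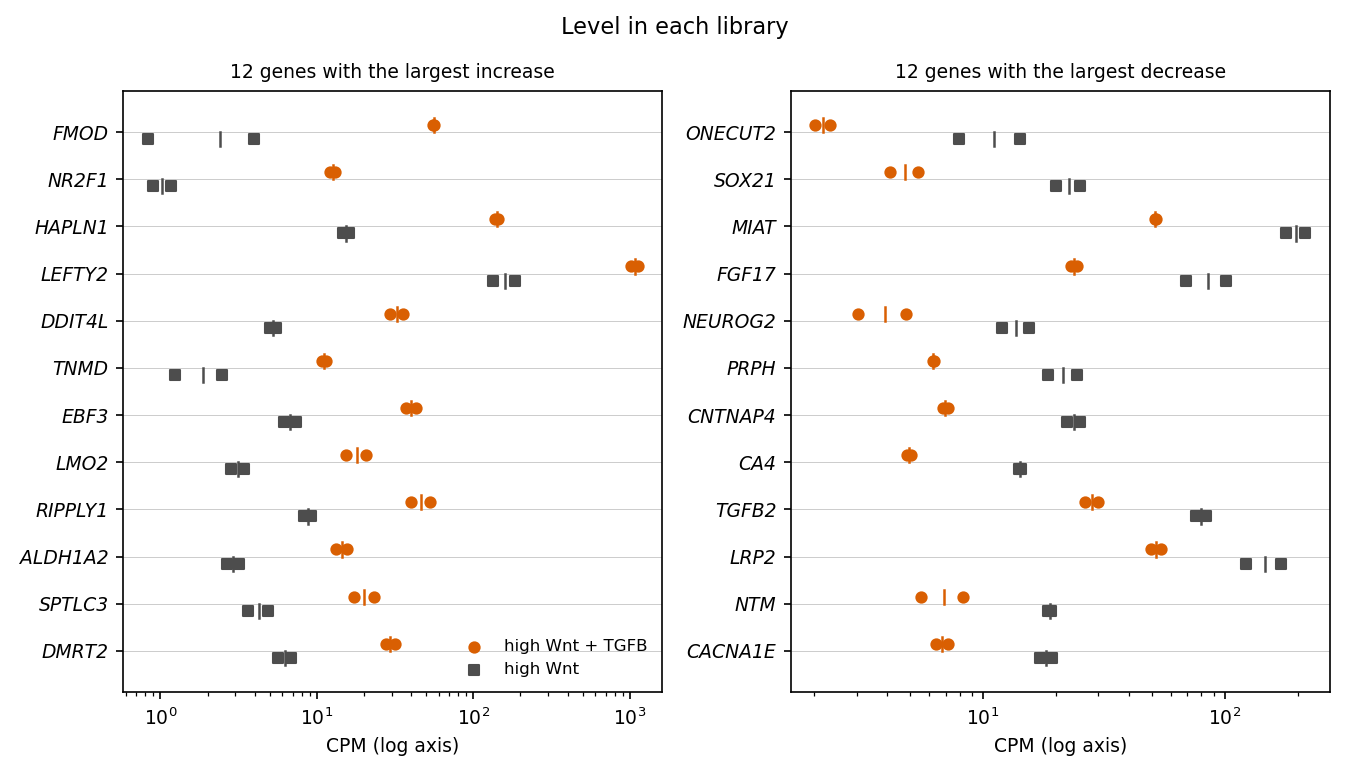
Level in CPM (log axis) in each library for the 12 genes with the largest increase and the 12 with the largest decrease among called genes at a mean of 10 CPM or more in the higher group. Circles are the 2 high Wnt + TGFB libraries, squares the 2 high Wnt libraries and the short lines their means. The choice of the genes required that the groups not overlap.

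Among the ligands of the SMAD2/3 branch, 2 of 13 tested members rose and 1 fell, and the median log2 fold change was 0, as over all genes tested. LEFTY2, a secreted antagonist of nodal that nodal signaling induces (hg38 chr1:225936598-225941383), was at 1021 and 1123 CPM in high Wnt + TGFB, against 184 and 134 CPM in high Wnt (log2 fold change 2.75, SE 0.16, adjusted p = 6.86e-08). LEFTY1, its nearly identical neighbour, was at 25.2 and 32.5 CPM in high Wnt + TGFB, against 7.73 and 6.6 CPM in high Wnt (2.01, SE 0.25). Reads that match both copies equally are not counted, so the split between them is uncertain, and both rose. TGFB2, a ligand of the same family as the one added (hg38 chr1:218345334-218444619), was at 29.9 and 26.3 CPM in high Wnt + TGFB, against 83.4 and 75.9 CPM in high Wnt (log2 fold change -1.51, SE 0.16, adjusted p = 2.31e-05). The 3 calls were kept.

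TGFB1 itself was at 97.9 and 86.8 CPM in high Wnt + TGFB and at 108 and 82.6 CPM in high Wnt, so that the groups overlapped. NODAL was at 2.51 and 2.88 CPM in high Wnt + TGFB and at 1.41 and 1.44 CPM in high Wnt and did not pass the test (0.92, SE 0.36, adjusted p = 0.142), although both treated libraries lay above both others. GDF11, a ligand of the posterior body axis, was at 62.6 and 51 CPM in high Wnt + TGFB and at 70.3 and 65.7 CPM in high Wnt (-0.26, SE 0.13, adjusted p = 0.282), and TGFB3 at 2.06 and 1.96 CPM in high Wnt + TGFB and at 1.66 and 1.03 CPM in high Wnt (0.59, SE 0.37, adjusted p = 0.403). Without the members at or under 3 counts in both groups, and with any member at 0 in 1 group set to its bound, the median over the remaining 10 ligands was 0.493.

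None of the 10 tested receptors and co-receptors passed the test. TGFBR1, the type I receptor for TGF-beta, was at 142 and 161 CPM in high Wnt + TGFB and at 161 and 181 CPM in high Wnt (-0.17, SE 0.12, adjusted p = 0.469). TGFBR2, the type II receptor, was at 18.9 and 17.1 CPM in high Wnt + TGFB and at 15.2 and 13.7 CPM in high Wnt (0.32, SE 0.15, adjusted p = 0.225). The activin and nodal receptor ACVR2B was at 214 and 224 CPM in high Wnt + TGFB and at 236 and 282 CPM in high Wnt (-0.24, SE 0.15, adjusted p = 0.393), and TDGF1, the nodal co-receptor cripto, at 0.269 and 0.245 CPM in high Wnt + TGFB and at 0.332 and 0.206 CPM in high Wnt (-0.05, SE 0.96, adjusted p = 0.998). The median log2 fold change of the receptors was -0.033.

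Among the SMADs and their corepressors and inhibitors, 2 of 16 rose and 2 fell. FST, which encodes follistatin, a secreted antagonist of activin, was at 106 and 134 CPM in high Wnt + TGFB, against 41.6 and 44.3 CPM in high Wnt (log2 fold change 1.49, SE 0.12, adjusted p = 1.1e-06). PMEPA1, a membrane protein that binds SMAD2 and SMAD3 and limits signaling, was at 7.8 and 10.7 CPM in high Wnt + TGFB, against 2.83 and 3.03 CPM in high Wnt (log2 fold change 1.67, SE 0.26, adjusted p = 0.000642). SMAD3, a transducer of the pathway, was at 190.0 and 164 CPM in high Wnt + TGFB, against 300.4 and 273 CPM in high Wnt (log2 fold change -0.7, SE 0.11, adjusted p = 0.000575). These 3 calls were kept. The ubiquitin ligase SMURF1 fell by 0.35 (SE 0.10). For SMURF1 the adjusted p was 0.156 to 0.241 without any 1 of the 4 libraries, 0.108 with library totals in place of TMM, 0.0572 with no filter on low counts and 0.051 with only the groups compared.

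The inhibitors most often used as readouts of the pathway did not pass. SMAD7, the inhibitory SMAD, was at 23 and 18.1 CPM in high Wnt + TGFB and at 20.2 and 14.1 CPM in high Wnt (0.26, SE 0.26, adjusted p = 0.641). SKIL, a SMAD corepressor, was at 174 and 181 CPM in high Wnt + TGFB and at 148 and 169.6 CPM in high Wnt (0.16, SE 0.19, adjusted p = 0.709), and BAMBI, a pseudoreceptor, at 4.84 and 5.03 CPM in high Wnt + TGFB and at 4.57 and 3.85 CPM in high Wnt (0.24, SE 0.21, adjusted p = 0.589). The transducers SMAD2 (-0.23, SE 0.09, adjusted p = 0.123) and SMAD4 (-0.03, SE 0.09, adjusted p = 0.901) were not called either.

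Of 13 tested genes that hold TGF-beta in its latent form or release it, 2 rose and 1 fell. ITGB8, the beta subunit of an integrin that activates latent TGF-beta, was at 38.6 and 41 CPM in high Wnt + TGFB, against 88.1 and 101 CPM in high Wnt (log2 fold change -1.25, SE 0.15, adjusted p = 6.66e-05), and this call was kept. FBN2, the microfibril protein fibrillin 2, was at 701 and 658 CPM in high Wnt + TGFB, against 414 and 510.0 CPM in high Wnt (log2 fold change 0.56, SE 0.14, adjusted p = 0.0219). For FBN2 the adjusted p was 0.14 without high Wnt + TGFB replicate 1, 0.0714 without high Wnt + TGFB replicate 2 and 0.224 without high Wnt replicate 1. LRRC32, which tethers latent TGF-beta at the cell surface, was at 10.4 and 10.8 CPM in high Wnt + TGFB, against 6.23 and 5.36 CPM in high Wnt (log2 fold change 0.87, SE 0.23, adjusted p = 0.0293). For LRRC32 the adjusted p was 0.0867 to 0.183 without any 1 of the 4 libraries and 0.0588 by DESeq2. The latent TGF-beta binding protein LTBP1 was at 217 and 233 CPM in high Wnt + TGFB and at 168 and 193 CPM in high Wnt and was not called (0.32, SE 0.10, adjusted p = 0.0703).

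Among 34 tested targets of TGF-beta and SMAD2/3, 2 rose and 5 fell, with a median of -0.088. LOX, the enzyme that crosslinks collagen and elastin, was at 77.6 and 72.5 CPM in high Wnt + TGFB, against 19.6 and 23.6 CPM in high Wnt (log2 fold change 1.79, SE 0.18, adjusted p = 7.64e-06). TGFBI, a secreted matrix protein named for its induction by TGF-beta, was at 183 and 197 CPM in high Wnt + TGFB, against 437 and 369.6 CPM in high Wnt (log2 fold change -1.09, SE 0.13, adjusted p = 6.66e-05). TNC, the matrix glycoprotein tenascin C, was at 47.9 and 48.2 CPM in high Wnt + TGFB, against 116 and 110.0 CPM in high Wnt (-1.23, SE 0.13). The calls of LOX, TGFBI and TNC were kept.

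The other calls of the target list were less stable. ID3, an inhibitor of helix-loop-helix factors, was at 275 and 261 CPM in high Wnt + TGFB, against 177 and 181 CPM in high Wnt (log2 fold change 0.58, SE 0.15, adjusted p = 0.023). For ID3 the adjusted p was 0.0823 to 0.136 without any 1 of the 4 libraries. SNAI2, a repressor of epithelial genes, fell by 0.71 (SE 0.17). For SNAI2 the adjusted p was 0.229 without high Wnt + TGFB replicate 2 and 0.186 without high Wnt replicate 1. CDKN1A, the cell cycle inhibitor p21, fell by 0.86 (SE 0.21). For CDKN1A the adjusted p was 0.0747 without high Wnt + TGFB replicate 1, 0.144 without high Wnt + TGFB replicate 2 and 0.114 without high Wnt replicate 1. The number of targets that rose was 1 without any 1 of the 4 libraries, and the number that fell was 3 and 2 without high Wnt + TGFB replicate 1 and 2 and 2 and 5 without high Wnt replicate 1 and 2.

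The promoters of the 4 members of the target and inhibitor lists that rose are shown because SMAD proteins are known to act at promoters of such genes. The windows run from 250 bases before to 50 after a transcription start in RefSeq (GRCh38.p14), 5′ to 3′ on the gene's strand, and where RefSeq lists several starts the one nearest the 5′ end of the counted gene model was taken. They lie at chr5:53480379-53480678 (plus strand) for FST, chr5:122078210-122078509 (minus strand) for LOX, chr20:57711423-57711722 (minus strand) for PMEPA1 and chr1:23559452-23559751 (minus strand) for ID3. Capitals mark matches to the SMAD core site GTCT or its complement AGAC, to the GC-rich motif GGCGC or its complement GCGCC, or to the AP-1 motif TGANTCA, searched on both strands.
FST: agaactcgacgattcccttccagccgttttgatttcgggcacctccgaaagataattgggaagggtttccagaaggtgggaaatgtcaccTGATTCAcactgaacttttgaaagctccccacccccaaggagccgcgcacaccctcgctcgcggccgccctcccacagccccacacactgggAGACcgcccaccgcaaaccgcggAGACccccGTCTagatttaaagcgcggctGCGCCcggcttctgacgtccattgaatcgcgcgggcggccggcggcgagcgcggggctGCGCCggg
LOX: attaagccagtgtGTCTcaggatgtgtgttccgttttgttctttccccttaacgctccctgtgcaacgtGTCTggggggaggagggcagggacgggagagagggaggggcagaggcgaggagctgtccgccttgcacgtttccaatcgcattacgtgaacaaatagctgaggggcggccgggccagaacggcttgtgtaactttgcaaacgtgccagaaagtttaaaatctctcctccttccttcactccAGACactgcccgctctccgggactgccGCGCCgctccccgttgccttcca
PMEPA1: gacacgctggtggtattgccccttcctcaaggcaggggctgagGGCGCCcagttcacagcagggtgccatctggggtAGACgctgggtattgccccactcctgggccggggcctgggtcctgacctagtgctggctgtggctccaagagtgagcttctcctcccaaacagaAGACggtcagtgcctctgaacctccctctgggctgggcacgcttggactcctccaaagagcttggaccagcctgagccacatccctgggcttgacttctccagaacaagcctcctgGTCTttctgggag
ID3: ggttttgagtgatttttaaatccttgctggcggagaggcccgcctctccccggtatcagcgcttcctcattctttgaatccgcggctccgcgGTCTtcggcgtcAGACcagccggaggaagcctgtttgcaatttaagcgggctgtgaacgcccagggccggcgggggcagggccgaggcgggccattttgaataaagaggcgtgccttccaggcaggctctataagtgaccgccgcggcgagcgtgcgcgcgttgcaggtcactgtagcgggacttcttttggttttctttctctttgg
FST, LOX and PMEPA1 each held 3 core sites and ID3 held 2, and the median over all 35116 promoter windows was also 2. The core site occurred in 84% of all windows, the GC-rich motif in 48.6% and the AP-1 motif in 7.71%. The GC-rich motif matched at 2 positions in FST and PMEPA1 (the PMEPA1 matches overlap), at 1 in LOX and at 0 in ID3, and FST held the single AP-1 match. The palindrome GTCTAGAC, which contains GTCT and AGAC and occurred in 0.202% of windows, matched in none of the 4.

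Many collagen genes rose. Of 25 collagens tested, 10 rose and 1 fell, with a median of 0.535. COL14A1, a collagen that lies on fibrils, was at 183 and 174 CPM in high Wnt + TGFB, against 38.6 and 46.7 CPM in high Wnt (log2 fold change 2.06, SE 0.15, adjusted p = 5.02e-07). COL1A2, a chain of the main fibrillar collagen, was at 1347 and 1219 CPM in high Wnt + TGFB, against 547 and 563 CPM in high Wnt (log2 fold change 1.21, SE 0.09, adjusted p = 6.88e-07). COL6A3 was at 43.3 and 43.2 CPM in high Wnt + TGFB, against 15.1 and 17.7 CPM in high Wnt (1.4, SE 0.15). All 3 were well detected in high Wnt too. COL3A1, whose exons hold the microRNA gene MIR3606, rose by 1.34 (SE 0.16), the cartilage collagen COL2A1 by 0.9 (SE 0.10) and COL5A2 by 0.74 (SE 0.10), and these 6 calls were kept. COL1A1, the partner chain of COL1A2, is named after its value was seen: it was at 606 and 609 CPM in high Wnt + TGFB and at 514 and 506 CPM in high Wnt (0.25, SE 0.09, adjusted p = 0.123).

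Of 20 tested enzymes that process or crosslink collagen, 5 rose and 0 fell. Besides LOX, PCOLCE, which enhances procollagen cleavage, was at 44.4 and 41 CPM in high Wnt + TGFB, against 22.9 and 22.4 CPM in high Wnt (0.91, SE 0.12), and the prolyl hydroxylase P3H2 rose by 0.55 (SE 0.10). The LOX-like enzymes LOXL1 and LOXL2 rose by 0.55 (SE 0.15) and 0.5 (SE 0.11), with adjusted p for LOXL1 of 0.236 without high Wnt + TGFB replicate 1, 0.0671 without high Wnt + TGFB replicate 2 and 0.281 without high Wnt replicate 2 and for LOXL2 of 0.0578 without high Wnt + TGFB replicate 2 and 0.0782 without high Wnt replicate 1. The number that rose was 4 and 3 without high Wnt + TGFB replicate 1 and 2 and 4 and 4 without high Wnt replicate 1 and 2.

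Of 27 matrix glycoproteins and proteoglycans, 7 rose and 2 fell, among them FMOD, HAPLN1 and TNC. ELN, which encodes elastin, was at 82.6 and 102 CPM in high Wnt + TGFB, against 40.0 and 36.5 CPM in high Wnt (1.28, SE 0.18). EMILIN1, a glycoprotein of elastic fibers, rose by 1.02 (SE 0.13) and the basement membrane protein NID2 by 0.72 (SE 0.11), both kept. Among 19 metalloproteinases and their inhibitors 1 rose and 2 fell: ADAM12 rose by 1.9 (SE 0.29), ADAMTS15 fell by 1.14 (SE 0.15), and MMP15 fell by 0.6 (SE 0.15). For MMP15 the adjusted p was 0.135 without high Wnt + TGFB replicate 1, 0.148 without high Wnt + TGFB replicate 2 and 0.201 without high Wnt replicate 2. Among 16 integrins 2 rose and 1 fell: ITGA3 was at 12.5 and 11.1 CPM in high Wnt + TGFB, against 4.82 and 5.64 CPM in high Wnt (1.16, SE 0.20), and ITGA9 rose by 1.46 (SE 0.35), with adjusted p of 0.0901 without high Wnt + TGFB replicate 1, 0.0526 without high Wnt + TGFB replicate 2 and 0.155 without high Wnt replicate 1, while ITGB8 was the member that fell.

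Of 17 smooth muscle contractile genes, 2 rose and 1 fell. ACTA2, the actin of smooth muscle, was at 313 and 304 CPM in high Wnt + TGFB, against 228 and 189.7 CPM in high Wnt (log2 fold change 0.56, SE 0.11, adjusted p = 0.00424). For ACTA2 the adjusted p was 0.0744 without high Wnt replicate 2. LMOD1, a nucleator of actin filaments in smooth muscle, was at 21 and 21 CPM in high Wnt + TGFB, against 9.31 and 7.98 CPM in high Wnt (1.28, SE 0.20). DES (desmin) fell by 1.03 (SE 0.26). For DES the adjusted p was 0.157 without high Wnt + TGFB replicate 1, 0.102 without high Wnt + TGFB replicate 2 and 0.293 without high Wnt replicate 1. CNN1, calponin, was not called (-0.43, SE 0.13, adjusted p = 0.0508), nor was the myosin light chain MYL9 (0.4, SE 0.12, adjusted p = 0.0551).

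Several lineage genes of the mesoderm rose. Of 15 tested genes of the somite and paraxial mesoderm, 8 rose and 1 fell, with a median of 1.181, and the list's summed level was 730.3 and 639 CPM in high Wnt + TGFB, against 428 and 365 CPM in high Wnt. MEOX1, a homeodomain factor of the somite (hg38 chr17:43640390-43661894), was at 232 and 210.3 CPM in high Wnt + TGFB, against 75.4 and 71.8 CPM in high Wnt (log2 fold change 1.59, SE 0.17, adjusted p = 1.79e-05). UNCX, which marks the posterior part of each somite, was at 33.1 and 35.2 CPM in high Wnt + TGFB, against 14.2 and 11.1 CPM in high Wnt (1.44, SE 0.23). MEOX2, a relative of MEOX1, rose by 3.2 (SE 0.50) from low counts. LFNG, a glycosyltransferase that acts on Notch in the presomitic mesoderm, was at 54.8 and 63.7 CPM in high Wnt + TGFB, against 98.7 and 93.3 CPM in high Wnt (-0.69, SE 0.11). TBX6, which specifies presomitic mesoderm and is named after its value was seen, was at 19.6 and 16.6 CPM in high Wnt + TGFB and at 25.3 and 17.5 CPM in high Wnt (-0.24, SE 0.19, adjusted p = 0.542). The number that rose was 5 and 7 without high Wnt + TGFB replicate 1 and 2 and 6 and 5 without high Wnt replicate 1 and 2, and 6 by DESeq2.

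Of 11 tested genes of the lateral and intermediate mesoderm, 5 rose and 0 fell, with a median of 1.462 (1.651 over the members above the floor, with those at 0 in 1 group at their bound). WT1, a factor of kidney and mesothelium, had 43 counts over both high Wnt + TGFB libraries and 0 over both high Wnt libraries, at least 13.9-fold higher against a floor of 3 counts over the group. GATA4, a factor of heart and gut, was at 3.67 and 2.64 CPM in high Wnt + TGFB, against 0.249 and 0.275 CPM in high Wnt (3.53, SE 0.60), and TBX3, a T-box factor, at 2.78 and 3.13 CPM against 0.0831 and 0.481 CPM (3.28, SE 0.57). TBX1, a factor of pharyngeal mesoderm, was at 15.4 and 10.6 CPM in high Wnt + TGFB, against 5.57 and 3.85 CPM in high Wnt (1.46, SE 0.33). For TBX1 the adjusted p was 0.142 without high Wnt + TGFB replicate 1 and 0.123 without high Wnt replicate 2. The members that rose were all low in high Wnt, and their number was 3 and 5 without high Wnt + TGFB replicate 1 and 2 and 5 and 3 without high Wnt replicate 1 and 2, and 3 by DESeq2.

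Of the 13 tested mesendoderm genes regulated by nodal 3 rose and 0 fell. LEFTY1 and LEFTY2, described above, were among them. Of 11 endoderm genes, only GATA4, which the lateral mesoderm list shares, passed the test (9.09%, against 7.25% of all genes tested). The list's summed level was 136 and 132 CPM in high Wnt + TGFB, against 117 and 98.4 CPM in high Wnt. CXCR4 made up most of this sum, at 120 and 116.5 CPM in high Wnt + TGFB and at 103.9 and 84.4 CPM in high Wnt. It was not called (adjusted p = 0.195 by edgeR). SOX17, which defines endoderm, was at 0 and 0 CPM in high Wnt + TGFB and at 0 and 0.0688 CPM in high Wnt. Of 12 endothelial and blood genes 1 rose and 1 fell: KDR (VEGFR2), a receptor for vascular endothelial growth factor, was at 8.42 and 7.73 CPM in high Wnt + TGFB, against 2.49 and 2.06 CPM in high Wnt (1.83, SE 0.20), and VWF, von Willebrand factor, fell by 1.02 (SE 0.24). For VWF the adjusted p was 0.179 without high Wnt + TGFB replicate 2 and 0.139 without high Wnt replicate 2. PECAM1, an endothelial adhesion molecule that was not called, had 26 counts over both treated libraries and 2 over both others, a ratio of 12.6 with an exact 95% interval of 3.15 to 109 that covers counting error only.

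Mesenchyme of the pharyngeal arches, which the crest forms in the head, shares genes with somite mesoderm, and FOXC1 and FOXC2 stand in both lists. Of 15 tested ectomesenchyme genes 8 rose and 1 fell, with a median of 0.813 and a summed level of 958 and 881 CPM in high Wnt + TGFB, against 489.5 and 485 CPM in high Wnt. NR2F2 (COUP-TFII), a nuclear receptor of mesenchyme, was at 88.1 and 72.8 CPM in high Wnt + TGFB, against 20.5 and 20.3 CPM in high Wnt (log2 fold change 1.98, SE 0.14, adjusted p = 3.7e-07). TWIST1, a helix-loop-helix factor of mesenchyme, was at 22.1 and 19.5 CPM in high Wnt + TGFB, against 9.14 and 6.47 CPM in high Wnt (1.42, SE 0.23), and FOXC1 at 121 and 99.8 CPM in high Wnt + TGFB, against 49 and 43.2 CPM in high Wnt (1.26, SE 0.15). The receptors for platelet-derived growth factor that mark mesenchyme also rose, PDGFRA by 0.77 (SE 0.10) and PDGFRB by 0.74 (SE 0.10), and these calls were kept. RUNX2, the factor of bone, which is named after its value was seen, was the member that fell (3.85 and 3.37 CPM in high Wnt + TGFB, against 9.23 and 9.56 CPM in high Wnt; -1.38, SE 0.23). In both this list and the somite list 8 of 15 genes rose, 1 fell and 6 did not pass, and the part of the somite genes in these values was not tested.

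Of 8 tested surface ectoderm and placode genes 4 rose and 1 fell, and EYA1 and EYA2 among them are also expressed in somites. EYA1, a transcriptional cofactor, was at 94.1 and 75.5 CPM in high Wnt + TGFB, against 21.2 and 21.1 CPM in high Wnt (log2 fold change 2.0, SE 0.17, adjusted p = 1.35e-06). EYA2, its relative, was at 16.2 and 18.5 CPM in high Wnt + TGFB, against 7.81 and 7.63 CPM in high Wnt (1.17, SE 0.22), and both calls were kept. GATA3, which also marks surface ectoderm, had 18 counts over both high Wnt + TGFB libraries and 0 over both high Wnt libraries, at least 5.81-fold higher. For GATA3 the adjusted p was 0.296 without high Wnt + TGFB replicate 2, 0.143 without high Wnt replicate 1 and 0.158 without high Wnt replicate 2. The homeodomain factor DLX3 fell by 1.21 (SE 0.30). For DLX3 the adjusted p was 0.0912 to 0.14 without any 1 of the 4 libraries and 0.0914 by DESeq2.

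Several genes of neurons fell. Of 12 tested genes of sensory and autonomic neurons 5 fell and 0 rose, with a median of -1.211 (-1.28 over the members above the floor) and a summed level of 172 and 168 CPM in high Wnt + TGFB, against 362 and 305 CPM in high Wnt. STMN2, a regulator of microtubules in growing neurons, was at 57.7 and 61.8 CPM in high Wnt + TGFB, against 159.7 and 131 CPM in high Wnt (log2 fold change -1.28, SE 0.17, adjusted p = 0.000107). PRPH, the neuronal filament peripherin, was at 6.27 and 6.2 CPM in high Wnt + TGFB, against 24.5 and 18.5 CPM in high Wnt (-1.78, SE 0.22), and NEUROG2, a proneural factor of sensory neurons, at 3.05 and 4.79 CPM in high Wnt + TGFB, against 12 and 15.5 CPM in high Wnt (-1.78, SE 0.29). The treated libraries lay below both others in these 3 genes, and the groups did not overlap in any of the 1170 called genes. ELAVL4, a neuronal RNA-binding protein, fell by 1.14 (SE 0.21), and these 4 calls were kept. TUBB3, neuronal tubulin, fell by 0.59 (SE 0.15). For TUBB3 the adjusted p was 0.0908 without high Wnt + TGFB replicate 1, 0.197 without high Wnt + TGFB replicate 2 and 0.239 without high Wnt replicate 1.

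Of 14 tested progenitor genes of the central nervous system 4 fell and 1 rose, with a median of -0.358. Their summed level was 210.4 and 213 CPM in high Wnt + TGFB, against 443 and 399 CPM in high Wnt. SOX2, which is also in the pluripotency list, made up most of this sum. SOX2, a factor of neural progenitors and stem cells, was at 158 and 154 CPM in high Wnt + TGFB, against 349 and 291 CPM in high Wnt (log2 fold change -1.04, SE 0.12, adjusted p = 4.71e-05), and its relative SOX3 at 5.2 and 6.26 CPM in high Wnt + TGFB, against 15 and 12.9 CPM in high Wnt (-1.26, SE 0.20). PAX6, a neural progenitor factor named after its value was seen, was at 6.18 and 6.14 CPM in high Wnt + TGFB and at 5.98 and 6.67 CPM in high Wnt (-0.04, SE 0.24, adjusted p = 0.958). NKX6-1, of ventral progenitors, fell by 1.37 (SE 0.35). For NKX6-1 the adjusted p was 0.0742 to 0.204 without any 1 of the 4 libraries. OLIG3, of dorsal progenitors, rose by 2.12 (SE 0.47). For OLIG3 the adjusted p was 0.0551 without high Wnt + TGFB replicate 2 and 0.114 without high Wnt replicate 1.

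Axial progenitors are the cells of the tailbud that give rise to spinal cord and paraxial mesoderm, and Wnt signaling is known to maintain them. Of 20 tested genes of this class 8 fell and 0 rose, with a median of -0.354 and a summed level of 1112 and 1042 CPM in high Wnt + TGFB, against 1617 and 1447 CPM in high Wnt. FGF17, a growth factor of the tailbud, was at 23.1 and 24.5 CPM in high Wnt + TGFB, against 101 and 69.1 CPM in high Wnt (log2 fold change -1.84, SE 0.22, adjusted p = 4.85e-05). CDX2, a homeodomain factor of the posterior body, was at 166 and 172 CPM in high Wnt + TGFB, against 323 and 312 CPM in high Wnt (-0.91, SE 0.16), and GREB1 fell by 0.76 (SE 0.11), and these 3 calls were kept. FGF8, another tailbud growth factor, was at 41.2 and 32.6 CPM in high Wnt + TGFB, against 97.2 and 60.7 CPM in high Wnt (-1.1, SE 0.22). For FGF8 the adjusted p was 0.0863 without high Wnt + TGFB replicate 2 and 0.114 without high Wnt replicate 1. T (brachyury), which defines the class and is named after its value was seen, was at 41.6 and 45.7 CPM in high Wnt + TGFB and at 56 and 46.7 CPM in high Wnt (-0.23, SE 0.16, adjusted p = 0.445). The number that fell was 6 and 3 without high Wnt + TGFB replicate 1 and 2 and 4 and 7 without high Wnt replicate 1 and 2.

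**Figure D3:**
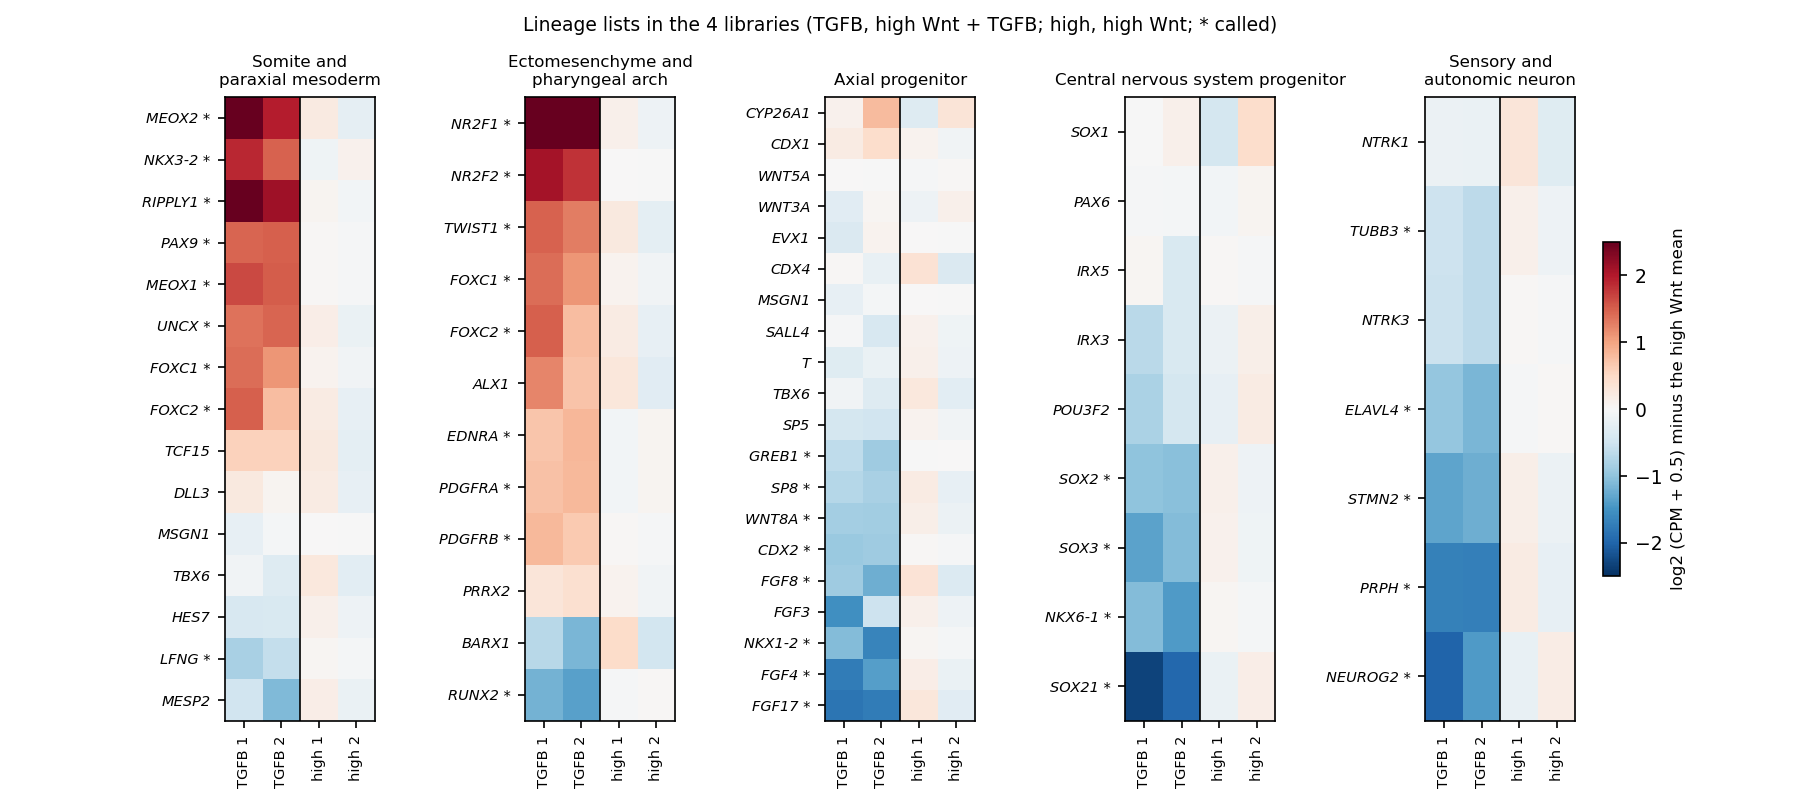
Change of each tested member of 5 lists with a mean of at least 1 CPM, as log2 (CPM + 0.5) minus the mean of the 2 high Wnt libraries (colour, limits at 2.5), with the 2 high Wnt + TGFB libraries left of the 2 high Wnt libraries. Stars mark called genes; MEOX1, NR2F2 and TWIST1 lie above and SOX21, PRPH and FGF17 below the high Wnt mean in both treated libraries.

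Of 20 tested crest specifiers 2 rose and 3 fell. TWIST1 and ID3 rose, and NGFR, SNAI2 and SOX10 fell. NGFR, a neurotrophin receptor that marks crest, was at 10.9 and 11.3 CPM in high Wnt + TGFB, against 18.2 and 19.3 CPM in high Wnt (-0.75, SE 0.14), and this call was kept. SOX10 fell by 1.47 (SE 0.43). For SOX10 the adjusted p was 0.41 without high Wnt + TGFB replicate 2, 0.199 without high Wnt replicate 1, 0.112 without high Wnt replicate 2, 0.0796 by DESeq2, 0.0532 with library totals in place of TMM and 0.0844 with only the groups compared. The number of specifiers that rose was 1 without any 1 of the 4 libraries, and the number that fell was 3 and 1 without high Wnt + TGFB replicate 1 and 2 and 1 and 2 without high Wnt replicate 1 and 2.

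Of 12 border genes 1 rose and 4 fell. PAX3, whose levels are given above, rose by 0.55 (SE 0.11). ZIC5, a zinc finger factor, was at 77.2 and 80.3 CPM in high Wnt + TGFB, against 123 and 123 CPM in high Wnt (-0.64, SE 0.11). Its relatives ZIC1 and ZIC2 fell by 0.75 (SE 0.17) and 0.58 (SE 0.13), with adjusted p for ZIC1 of 0.134 without high Wnt + TGFB replicate 1, 0.0569 without high Wnt + TGFB replicate 2 and 0.146 without high Wnt replicate 1 and for ZIC2 of 0.131 without high Wnt + TGFB replicate 2 and 0.113 without high Wnt replicate 1. The number of border genes that fell was 2 and 1 without high Wnt + TGFB replicate 1 and 2 and 1 and 3 without high Wnt replicate 1 and 2.

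Of 12 tested genes of melanocytes, Schwann cells and glia 4 fell and 0 rose. FABP7, a fatty acid binding protein of glial precursors, was at 16.1 and 22.1 CPM in high Wnt + TGFB, against 42.1 and 39 CPM in high Wnt (log2 fold change -1.07, SE 0.16, adjusted p = 0.00034), and this call was kept. EDNRB, an endothelin receptor of melanoblasts, fell by 1.07 (SE 0.23). For EDNRB the adjusted p was 0.104 without high Wnt + TGFB replicate 1 and 0.0871 without high Wnt replicate 1. The number that fell was 1 and 4 without high Wnt + TGFB replicate 1 and 2 and 2 and 3 without high Wnt replicate 1 and 2. Of 18 pluripotency genes 1 rose (LEFTY1) and 4 fell, among them SOX2 and the RNA-binding protein LIN28A (342 and 337 CPM in high Wnt + TGFB, against 708 and 564 CPM in high Wnt; -0.9, SE 0.13).

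The lists of mesenchymal and epithelial state had medians of -0.015 and 0.113. Of 13 mesenchymal genes 1 rose and 2 fell, and VIM, the filament vimentin, was at 1973 and 1832 CPM in high Wnt + TGFB and at 1793 and 1481 CPM in high Wnt (0.22, SE 0.11, adjusted p = 0.301). ZEB1, a repressor of epithelial genes, fell by 0.54 (SE 0.12). For ZEB1 the adjusted p was 0.107 without high Wnt + TGFB replicate 1, 0.0544 without high Wnt + TGFB replicate 2 and 0.104 without high Wnt replicate 2. Of 18 epithelial genes 2 rose and 1 fell: the keratin KRT8 was at 669 and 615 CPM in high Wnt + TGFB, against 393 and 321 CPM in high Wnt (0.85, SE 0.16), and its partner KRT18 rose by 0.69 (SE 0.14). For KRT18 the adjusted p was 0.0646 without high Wnt + TGFB replicate 1 and 0.0887 without high Wnt replicate 2.

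**Figure D4:**
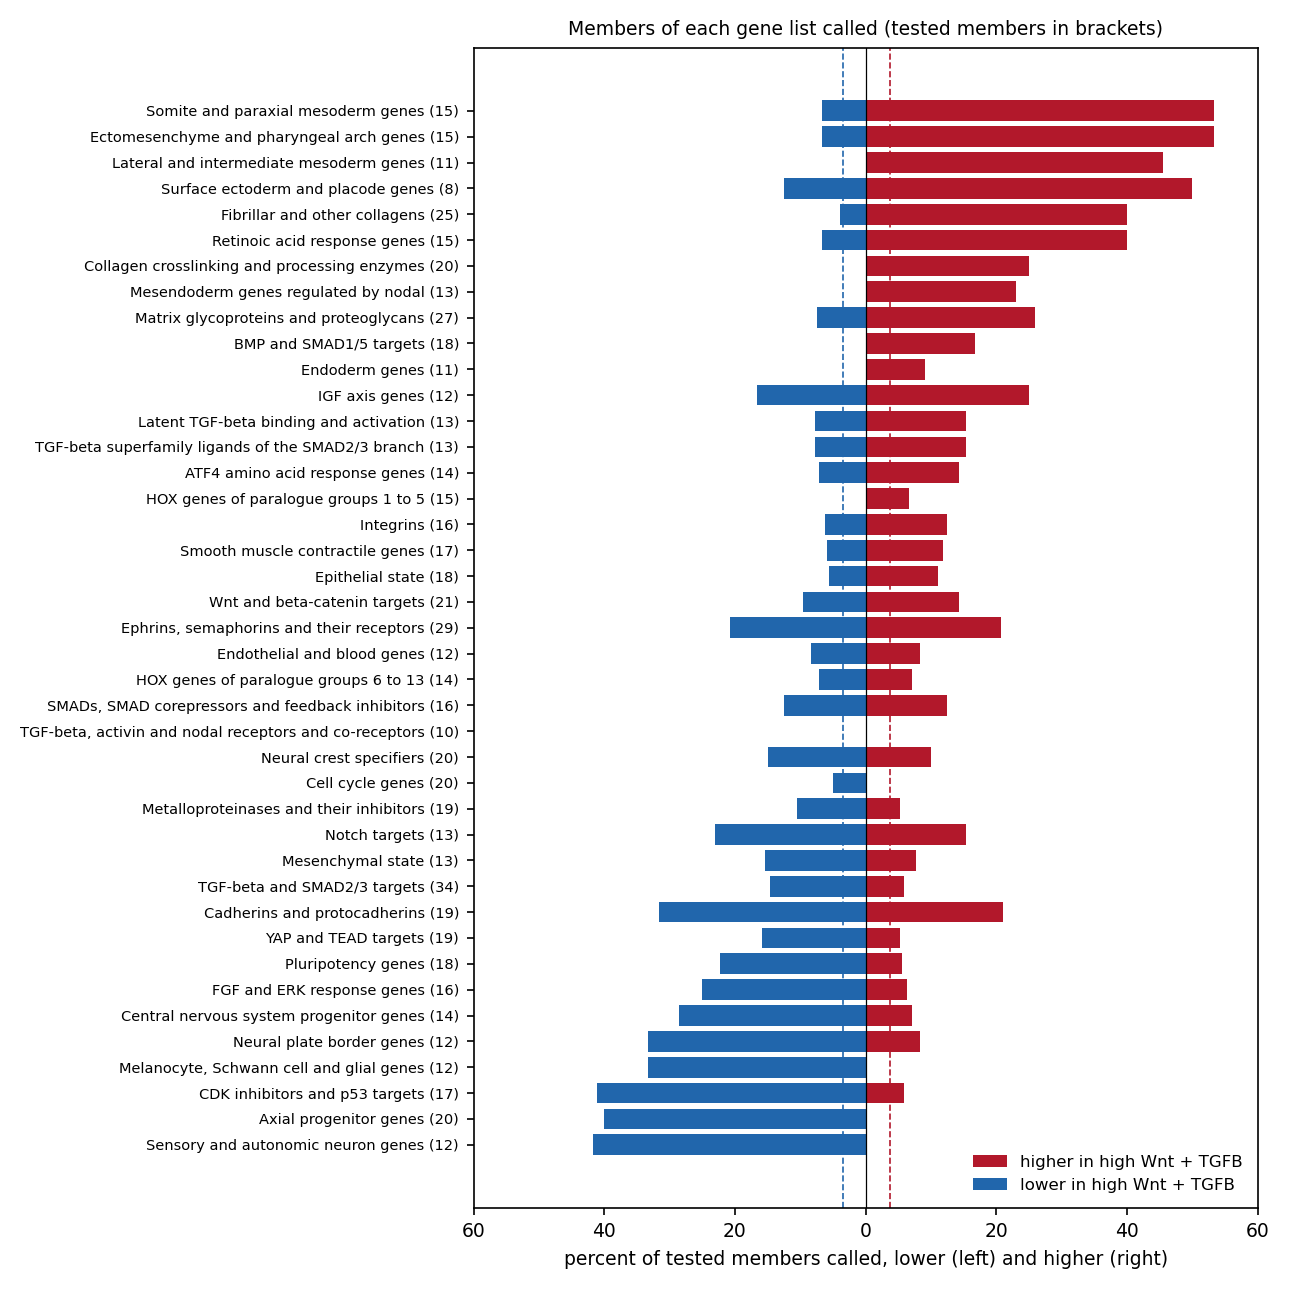
Percent of the tested members of each of 41 gene lists called higher (to the right) and lower (to the left) in high Wnt + TGFB than in high Wnt. The dashed lines are the shares over all 16149 genes tested, 3.75% higher and 3.49% lower; 8 of 15 somite genes and 8 of 15 ectomesenchyme genes were higher, and 5 of 12 sensory and autonomic neuron genes were lower.

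Among genes that respond to other signals, 6 of 15 tested retinoic acid response genes rose and 1 fell. MEIS2, a homeodomain cofactor induced by retinoic acid, was at 154 and 153 CPM in high Wnt + TGFB, against 59.1 and 68.9 CPM in high Wnt (log2 fold change 1.26, SE 0.12, adjusted p = 5.82e-06). TSHZ1, a zinc finger factor, was at 83.2 and 90.7 CPM in high Wnt + TGFB, against 19.7 and 27.6 CPM in high Wnt (1.87, SE 0.20). DHRS3, a retinaldehyde reductase, rose by 1.06 (SE 0.19) and MEIS1 by 0.67 (SE 0.11), beside the synthetic enzyme ALDH1A2, and these 5 calls were kept. CYP26B1 rose by 1.31 (SE 0.29), and its call was not kept. CRABP2, named after the calls were seen, was the member that fell, and its call was not kept either. The 8 members that did not pass included CYP26A1 and RARB, also named after the calls were seen. Of the HOX genes, which give cells their position along the body, 1 of 15 tested in paralogue groups 1 to 5 rose and 0 fell. This share, 6.67%, was near the 7.25% called over all genes tested. Of 14 tested in groups 6 to 13, HOXD9 rose, at 48.8 and 59.3 CPM in high Wnt + TGFB, against 13.6 and 13.5 CPM in high Wnt (2.0, SE 0.22), and HOXB7 fell by 0.75 (SE 0.19). For HOXB7 the adjusted p was 0.11 to 0.143 without any 1 of the 4 libraries.

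Of 21 Wnt targets 3 rose and 2 fell. DKK1, a secreted Wnt inhibitor, was at 79.3 and 70.8 CPM in high Wnt + TGFB, against 19 and 18.5 CPM in high Wnt (log2 fold change 2.0, SE 0.15, adjusted p = 6.88e-07), and the receptor TNFRSF19 rose by 0.76 (SE 0.10). CCND1 (cyclin D1) was at 356 and 369 CPM in high Wnt + TGFB, against 503 and 549 CPM in high Wnt (-0.54, SE 0.09). The transcription factor SP5, which Wnt signaling induces, was at 16 and 15.5 CPM in high Wnt + TGFB and at 23.2 and 20.6 CPM in high Wnt (-0.47, SE 0.25, adjusted p = 0.309).

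Among 16 tested genes that respond to FGF and ERK, 4 fell and 1 rose. ETV5, an ETS factor downstream of FGF, was at 49.9 and 54.7 CPM in high Wnt + TGFB, against 89.1 and 90.2 CPM in high Wnt (log2 fold change -0.78, SE 0.10, adjusted p = 0.000171), and PHLDA1 rose by 1.69 (SE 0.14), and both calls were kept. The feedback inhibitor SPRY4 fell by 0.77 (SE 0.19). For SPRY4 the adjusted p was 0.19 without high Wnt + TGFB replicate 1 and 0.12 without high Wnt replicate 2. The number that fell was 1 and 2 without high Wnt + TGFB replicate 1 and 2 and 3 and 1 without high Wnt replicate 1 and 2, and 2 with library totals.

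Of 18 BMP targets 3 rose (GATA3, TBX3 and ID3, described above) and 0 fell, and of 13 Notch targets 2 rose and 3 fell. HEY2, a repressor downstream of Notch, was at 51.8 and 45.9 CPM in high Wnt + TGFB, against 26.4 and 22.5 CPM in high Wnt (1.0, SE 0.15). The ligand JAG1 fell by 0.84 (SE 0.18), with adjusted p of 0.105 without high Wnt + TGFB replicate 2 and 0.115 without high Wnt replicate 1, and the receptor NOTCH1 by 0.63 (SE 0.13). For NOTCH1 the adjusted p was 0.133 without high Wnt + TGFB replicate 2 and 0.0607 without high Wnt replicate 1. Of 19 YAP and TEAD targets 1 rose and 3 fell, and AJUBA, a LIM protein, was the kept call (281 and 276 CPM in high Wnt + TGFB, against 399 and 380.5 CPM in high Wnt; -0.48, SE 0.09).

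Cell cycle genes had a median of -0.242, and of 20 tested 1 fell (5%, against 3.49% of all genes tested). This was TOP2A, topoisomerase II alpha, at 1045 and 1166 CPM in high Wnt + TGFB, against 1483 and 1512 CPM in high Wnt (-0.44, SE 0.12). For TOP2A the adjusted p was 0.0735 to 0.253 without any 1 of the 4 libraries and 0.0778 with library totals in place of TMM. Of 17 CDK inhibitors and p53 targets 7 fell and 1 rose, and none of these calls was kept. ZMAT3, an RNA-binding protein induced by p53, was at 62.1 and 74.7 CPM in high Wnt + TGFB, against 109 and 117 CPM in high Wnt (-0.72, SE 0.13). For ZMAT3 the adjusted p was 0.0594 without high Wnt + TGFB replicate 1. The number that fell was 1 and 3 without high Wnt + TGFB replicate 1 and 2 and 2 and 4 without high Wnt replicate 1 and 2. Of 14 ATF4 response genes 2 rose and 1 fell, the kept call being that of VLDLR, a lipoprotein receptor, which rose by 0.92 (SE 0.16).

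Surface proteins of guidance and adhesion changed in both directions. Of 29 tested ephrins, semaphorins and their receptors 6 rose and 6 fell. SEMA3C, a secreted semaphorin, was at 39 and 34.4 CPM in high Wnt + TGFB, against 11.8 and 12.2 CPM in high Wnt (1.61, SE 0.15), and PLXNA2, a semaphorin receptor, at 141 and 130.1 CPM in high Wnt + TGFB, against 43.3 and 46.7 CPM in high Wnt (1.59, SE 0.12). EPHA2, an ephrin receptor, was at 171 and 207 CPM in high Wnt + TGFB, against 362 and 389.8 CPM in high Wnt (-0.99, SE 0.14), and the ephrin EFNB1 fell by 0.85 (SE 0.13), and these 4 calls were kept.

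Of 19 cadherins and protocadherins 4 rose and 6 fell. The protocadherin PCDH18 was at 124 and 107 CPM in high Wnt + TGFB, against 257 and 212 CPM in high Wnt (-1.02, SE 0.12), PCDH1 fell by 1.1 (SE 0.18) and CDH13 rose by 0.84 (SE 0.16). Of 12 genes of the IGF axis 3 rose and 2 fell. The fetal growth factor IGF2 was at 33.2 and 26.1 CPM in high Wnt + TGFB, against 12.7 and 10.7 CPM in high Wnt (1.34, SE 0.22), and its imprinted neighbour, the noncoding H19, at 14.8 and 13.5 CPM in high Wnt + TGFB, against 5.15 and 5.78 CPM in high Wnt (1.37, SE 0.22). IGF2 shares exon bases with INS-IGF2 and H19 with MIR675, and reads that overlap both are not counted. The binding protein IGFBP5 rose by 0.68 (SE 0.12) and the receptor IGF1R fell by 0.61 (SE 0.11).

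The same ligand was also added at the low CHIR99021 dose, where it changed 4196 genes (26%), 2220 upward (13.7%) and 1976 downward (12.2%), and the 2 comparisons share no library. Whether the effect at 10 µM differed from that at 3 µM was tested directly, as the difference of the log2 fold changes (high dose minus low dose), and 1905 genes (11.8%) were called, 926 with a positive difference (5.73%) and 979 with a negative one (6.06%). Of the 606 genes that rose at the high dose, 196 (32.3%) also rose at the low dose, 102 (16.8%) fell there, and for 290 (47.9%) the difference was called. Of the 564 that fell at the high dose, 188 (33.3%) also fell at the low dose, 94 (16.7%) rose there, and for 228 (40.4%) the difference was called. Opposite calls at both doses nearly fix a called difference in advance, so it is no separate support. It was called for all 102 and all 94 genes of opposite direction.

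Several of the mesenchymal genes above were of this kind. NR2F1, at 3.63 with the high dose, was at 35.9 and 33.8 CPM in low Wnt + TGFB, against 107 and 100.3 CPM in low Wnt, a log2 fold change of -1.57 and a difference of 5.2, SE 0.26, adjusted p = 2.87e-09. Its paralogue NR2F2 was at 116 and 101 CPM in low Wnt + TGFB, against 379 and 316 CPM in low Wnt (-1.68; difference 3.66, SE 0.19). COL1A2 was at 272 and 282 CPM in low Wnt + TGFB, against 651 and 709 CPM in low Wnt (-1.3; difference 2.5, SE 0.13). All 3 lay higher with the ligand at the high dose and lower with it at the low dose. IGF2 was at 0.427 and 0.586 CPM in low Wnt + TGFB, against 11.6 and 10.2 CPM in low Wnt (-4.39; difference 5.73, SE 0.41), and MEIS2 changed by -1.28 there (difference 2.54, SE 0.17).

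Other genes fell at the high dose and rose at the low dose. CNTNAP4 was at 8.32 and 10.0 CPM in low Wnt + TGFB, against 0.487 and 0.598 CPM in low Wnt, so that it changed by -1.76 at the high dose and by 4.06 at the low dose (difference -5.82, SE 0.32). FGF17 was at 1.21 and 2.05 CPM in low Wnt + TGFB, against 0.487 and 0.299 CPM in low Wnt, a low level in both groups, and changed by -1.84 at the high dose and by 2.06 at the low dose (difference -3.89, SE 0.57). TNC was at 33.9 and 43.3 CPM in low Wnt + TGFB, against 20.7 and 19.4 CPM in low Wnt (0.95; difference -2.18, SE 0.20).

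Among the pathway's own genes the difference between doses was called for some and not for others. TGFB2 changed by -1.44 at the low dose (difference -0.07, SE 0.28, adjusted p = 0.92), SMAD3 by -0.85 (difference 0.15, SE 0.15, adjusted p = 0.601) and ITGB8 by -1.65 (difference 0.4, SE 0.21, adjusted p = 0.265), and PMEPA1 by 2.33 (difference -0.66, SE 0.37, adjusted p = 0.286). These 4 differences were not called, which does not show that the effects were alike. LEFTY2 was at 4.05 and 2.75 CPM in low Wnt + TGFB, against 2.25 and 2.81 CPM in low Wnt, and its difference was called (2.35, SE 0.35), as was that of LOX (2.32, SE 0.41). SKIL was at 126 and 140.0 CPM in low Wnt + TGFB, against 25.3 and 35.2 CPM in low Wnt (2.13; difference -1.98, SE 0.27), and SMAD7 changed by 1.57 there (difference -1.31, SE 0.39). In low Wnt SKIL thus lay well below its level of 148 and 169.6 CPM in high Wnt.

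Counts over the lists are set side by side at both doses, without a test of the difference in counts. Over all genes tested 3.75% rose and 3.49% fell at the high dose, and 13.7% rose and 12.2% fell at the low dose. Of 15 somite genes 8 rose and 1 fell at the high dose, and 0 rose and 3 fell at the low dose. Some of them were low there: FOXC1 was at 1.14 and 0.878 CPM in low Wnt + TGFB and at 0.548 and 0.718 CPM in low Wnt. HES7, which fell, was at 1.21 and 1.52 CPM against 2.5 and 2.27 CPM. Of 11 endoderm genes 1 rose at the high dose and 11 at the low dose. Of 18 epithelial genes 2 rose at the high dose and 12 at the low dose, and for 12 the difference was called negative. Of 14 central nervous system genes 4 fell at the high dose and 12 at the low dose.

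**Figure D5:**
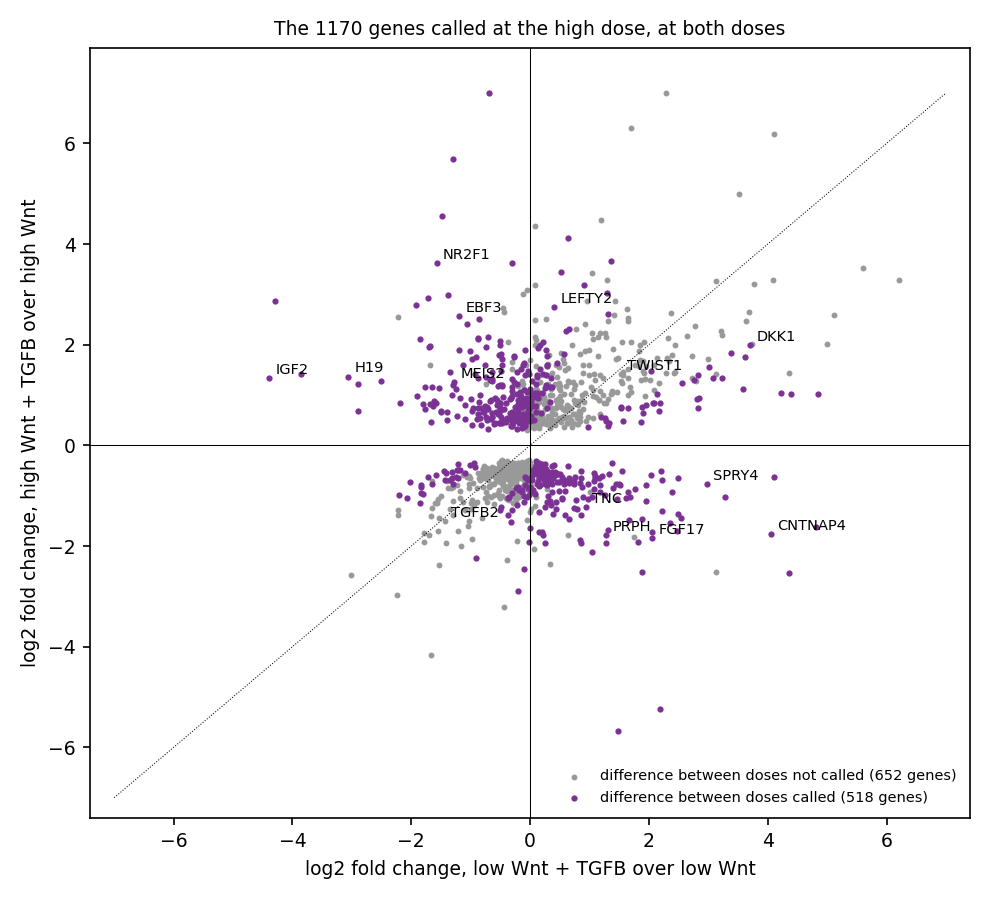
Log2 fold change with TGF-beta 1 at the high CHIR99021 dose (vertical axis) against that at the low dose (horizontal axis) for the 1170 genes called at the high dose, with 2 genes beyond 7 drawn at that edge. The coloured points are the 518 genes whose difference between doses was called and the grey points the other 652, and the dotted line marks equal change; NR2F1 and IGF2 lie upper left, and CNTNAP4 and FGF17 lower right.

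The receptor inhibitor SB431542 at the same CHIR99021 dose changed 3476 genes (21.5%), of which 1605 rose (9.94%) and 1871 fell (11.6%). It was compared with the same 2 high Wnt libraries as TGF-beta 1, which both comparisons share, so the values are only set side by side. LEFTY2 was at 1.53 and 0.836 CPM in high Wnt + SB4, against 184 and 134 CPM in high Wnt (-7.09, SE 0.25), where TGF-beta 1 gave 2.75. PMEPA1 was at 0.191 and 0.167 CPM in high Wnt + SB4 (-3.98, SE 0.45) and DKK1 at 2.99 and 2.45 CPM (-2.79, SE 0.19), where TGF-beta 1 gave 1.67 and 2.0. NODAL was at 0 in both high Wnt + SB4 libraries, against 1.41 and 1.44 CPM in high Wnt. All 4 were thus far lower in high Wnt + SB4 than in high Wnt.

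Other genes were lower with either agent. TGFB2 was at 40.5 and 34.2 CPM in high Wnt + SB4 (-1.09, SE 0.16), SMAD3 at 122 and 122 CPM (-1.23, SE 0.11) and TGFBI at 254 and 197 CPM (-0.84, SE 0.13), where TGF-beta 1 gave -1.51, -0.7 and -1.09. SKIL and SMAD7, which were not called with TGF-beta 1, changed by -1.23, SE 0.19, and -1.35, SE 0.28, with SB431542. Of the same 34 target genes, 21 fell and 2 rose with the inhibitor. HAPLN1 (0.01, SE 0.15, adjusted p = 0.986) and NR2F2 (0.09, SE 0.14, adjusted p = 0.707) did not pass with it.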

How the data were processed

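Polyadenylated RNA of 14 libraries, 2 in each of 7 groups, was read from 1 table of raw counts per gene deposited by the authors. Per the labels' protocols libraries were directional, and per the file headers featureCounts 2.0.0 counted read pairs on the reverse strand over exons by gene. HISAT2 2.2.0, SAMtools 1.10, bcl2fastq and the genome hg38 are named in the submitters' processing notes. Reads with several alignments or overlapping several genes were not counted, per the file headers, so near-identical copies and overlapping genes lose reads.

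All 14 libraries entered 1 model in edgeR 4.0.16 (R 4.3.3) after its filter on low counts, which left 16149 genes, with TMM scaling, 1 coefficient per group, 7 residual degrees of freedom and a common biological coefficient of variation of 0.101. The quasi-likelihood F-test was adjusted by Benjamini-Hochberg, and the SE is the absolute log2 fold change divided by the square root of F. A floor of 3 counts in 1 library corresponds to 0.184 to 0.269 CPM in the 4 libraries. The bounds for genes at 0 in 1 group use 3 counts over both libraries of that group. Both floors cover counting error only. On simulated counts for high Wnt + TGFB over high Wnt, over 15978 genes, the script called 37 of 67 genes changed 1.5-fold, 66 of 67 changed 2-fold and 66 of 66 changed 4-fold, with 10 unchanged genes called. The changed genes were drawn from well-detected genes, and every simulated gene had the same coefficient of variation.

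Named genes are the 12 that rose and the 12 that fell most, taken from called genes at a mean of 10 CPM or more in the higher group whose libraries did not overlap, the 6 members of each of 41 gene lists with the smallest p, all members of the ligand, receptor, SMAD and latency lists, and the 6 largest and 6 smallest differences between doses. Other genes are said to be named after their values were seen. The comparison, the lists and the rules were chosen with earlier results of these data known. Alternatives were RLE scaling, library totals, no filter, only the groups compared, leaving out the group labelled hESC, a replicate block, DESeq2 1.42.0, stricter thresholds and leaving out each library. The labels number the libraries 1 and 2 in every group. Deviations from the group means correlated by 0.119 over the pair compared, and 5 of 21 pairs of groups passed 0.1, so the numbers were not taken as pairs. Some genes that this rule picks are not reported here.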

Additional observations from a re-analysis of the deposited data

Results flagged for a closer look

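The effect of TGF-beta 1 differed between the high and the low CHIR99021 dose in 1905 genes by edgeR's test of the difference itself. The genes below are those with the largest called differences in either direction, or those called in opposite directions with a difference of at least 3 on the log2 scale. Values are log2 differences, high dose minus low dose, with their SE.

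Genes that stood above 0 included factors of mesenchyme and genes of growth control. NR2F1 differed by 5.2 (SE 0.26), NR2F2 by 3.66 (SE 0.19) and EBF3 by 3.76 (SE 0.34). The imprinted pair IGF2 and H19 differed by 5.73 (SE 0.41) and 4.42 (SE 0.37), and IGFBP5 by 3.58 (SE 0.17). VCAM1, an adhesion molecule, was at 13.8 and 15.2 CPM in high Wnt + TGFB, against 5.24 and 5.57 CPM in high Wnt, and at 0.925 and 0.82 CPM in low Wnt + TGFB, against 12.4 and 12.9 CPM in low Wnt, a difference of 5.27 (SE 0.25). ADAM12 differed by 3.1 (SE 0.41).

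Among progenitor genes OLIG3 differed by 3.98 (SE 0.53) and DBX1 by 7.76 (SE 1.54). DBX1 had 6 counts over both high Wnt + TGFB libraries and 0 over both high Wnt libraries, so this fitted value depends on the prior count and is no bound. NDE1 differed by 4.57 (SE 1.43), was at 6.45 and 1.17 CPM in high Wnt + TGFB, against 2.41 and 1.86 CPM in high Wnt, with overlapping groups, and was at 2.62 and 34.5 CPM in low Wnt replicate 1 and 2, which differ more than any of the groups. NDE1 is annotated on 2 contigs and shares exon bases with MIR484.

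Genes that stood below 0 included CNTNAP4, NTM, PRPH and NKX6-1, which are expressed in neurons or neural progenitors. CNTNAP4 differed by -5.82 (SE 0.32), NTM by -3.14 (SE 0.34), PRPH by -3.07 (SE 0.39) and NKX6-1 by -3.87 (SE 0.88). GAD1, the enzyme that makes the transmitter GABA, was at 54 and 52 CPM in high Wnt + TGFB, against 89.4 and 74.6 CPM in high Wnt, and at 11.8 and 16.2 CPM in low Wnt + TGFB, against 0.731 and 0.897 CPM in low Wnt, a difference of -4.73 (SE 0.34). In high Wnt + TGFB against high Wnt alone, GAD1 changed by -0.63, SE 0.17, with an adjusted p, by edgeR, of 0.146 without high Wnt + TGFB replicate 1, 0.191 without high Wnt + TGFB replicate 2, 0.272 without high Wnt replicate 1 and 0.0533 with library totals in place of TMM.

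Signal and surface genes below 0 were FGF17 at -3.89 (SE 0.57), SPRY4 at -3.75 (SE 0.30), SP5 at -5.13 (SE 0.40), VWF at -4.3 (SE 0.34) and PCDH1 at -3.05 (SE 0.22). SP5 was at 29.5 and 54.4 CPM in low Wnt + TGFB, against 1.34 and 1.97 CPM in low Wnt, both treated libraries lying above its levels at the high dose. S100A14 at -5.35 (SE 1.11), VIL1 at -5.1 (SE 1.53) and POU5F1B at -4.96 (SE 1.05) were at or below 0.429 CPM in all 4 high-dose libraries, so their values rest on the low dose. POU5F1B is a near-identical copy of POU5F1, and the split of reads between them is uncertain.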

How the results depend on the processing

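No called fold change of a named gene turned direction under any alternative. The balance of calls, 606 higher and 564 lower, turned to 574 higher and 658 lower by DESeq2 and to 730 higher and 791 lower without the hESC libraries. The 1170 genes called in high Wnt + TGFB against high Wnt became 1180 with RLE scaling, 1188 with library totals, 1691 with no filter on low counts, 1409 with only the groups compared, 1521 without the hESC libraries and 1232 by DESeq2. With the replicate block the count was 1418 (715 higher and 703 lower), although the numbers were not taken as pairs, since the correlation of deviations was 0.119 and 5 of 21 pairs of groups passed 0.1. With a log2 fold change of at least 1 required, 428 genes were called (294 higher and 134 lower), 1064 for the difference between doses, 1654 at the low dose and 962 with SB431542. At an adjusted p under 0.01 the counts were 570 (330 higher and 240 lower), 1044, 2538 and 1888. Leaving out 1 library gave 538 to 714 genes (317 to 393 higher and 221 to 330 lower), 1251 to 1731 for the difference between doses, 2347 to 3564 at the low dose and 1942 to 2424 with SB431542. Such a fit leaves a group with 1 library, which is assumed to vary like the other groups. The 270 named genes include many that were not called and so could not lose a call, and 270 is not the base for a share lost. Of 270 named genes, 43 and 40 lost their call without high Wnt + TGFB replicate 1 and 2 and 38 and 32 without high Wnt replicate 1 and 2, 8 did so with library totals and 3 by DESeq2, and 0 with the replicate block. The causes were not tested. Depth limits genes near the floor of 3 counts. A 1.5-fold change was recovered in 55.2% of simulated cases, which were drawn from well-detected genes and do not cover genes near the floor.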

Other observations

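Further genes outside the lists are given here as values, chosen after their values were seen, and all of their calls were kept in each fit that left out 1 of the 4 libraries. They were not drawn from a list, so no count or share of a class can be read from them. FRZB, a secreted Wnt antagonist, was at 137 and 127 CPM in high Wnt + TGFB, against 41.9 and 42.9 CPM in high Wnt (1.64, SE 0.12), and RSPO3, an agonist of Wnt receptors, at 23 and 18.7 CPM in high Wnt + TGFB, against 5.57 and 6.47 CPM in high Wnt (1.78, SE 0.28). NTN1, the guidance cue netrin 1, was at 229 and 233 CPM in high Wnt + TGFB, against 98.7 and 107 CPM in high Wnt (1.17, SE 0.13), FSTL1, a follistatin-like glycoprotein, at 1455 and 1449 CPM in high Wnt + TGFB, against 985 and 953 CPM in high Wnt (0.58, SE 0.08), and SULF1, a sulfatase that edits heparan sulfate, rose by 1.16 (SE 0.12). The adhesion molecule ALCAM was at 344 and 341 CPM in high Wnt + TGFB, against 116 and 132 CPM in high Wnt (1.47, SE 0.10), and the Hedgehog co-receptors GAS1 and BOC rose by 1.11 (SE 0.17) and 0.75 (SE 0.11).

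Further genes chosen in the same way include some expressed in neurons. SOX11, a factor of immature neurons, was at 223 and 221 CPM in high Wnt + TGFB, against 390.2 and 391 CPM in high Wnt (-0.81, SE 0.10), MAP2, a microtubule protein of dendrites, fell by 1.19 (SE 0.13) and NFASC, an adhesion molecule of axons, by 1.08 (SE 0.12). NEFM, a neurofilament, was at 33.1 and 35.5 CPM in high Wnt + TGFB, against 14.4 and 13 CPM in high Wnt (1.33, SE 0.14) and so rose while the filament gene PRPH fell. The FGF receptor FGFR3 was at 43.4 and 55 CPM in high Wnt + TGFB, against 114 and 104 CPM in high Wnt (-1.14, SE 0.12) and the FGF-binding protein FGFBP3 at 111 and 118 CPM in high Wnt + TGFB, against 321 and 275 CPM in high Wnt (-1.38, SE 0.14). The glucose transporter SLC2A1 was at 58.2 and 54.3 CPM in high Wnt + TGFB, against 133 and 111 CPM in high Wnt (-1.12, SE 0.15). VANGL2 and CELSR2, which act in planar polarity, fell by 0.65 (SE 0.10) and 0.85 (SE 0.14).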
